A study of Sus scrofa with 41 samples.

Results

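ENSSSCG00000035340 is a gene of the pig genome annotation that has only an Ensembl identifier in the table of gene names used here, with no symbol. It was chosen by its difference in level between the Duroc and Landrace breeds in these same pigs, and it is 1 of the 25880 genes in the count files. Its breed difference is therefore described and not tested. Whether its level falls into separate states or forms a gradient, which genes vary with it inside each breed, and how it relates to RNA integrity and feed efficiency were then asked of the data.

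The pigs were 13 Danbred Duroc and 28 Danbred Landrace boars, all purebred and uncastrated. They ate from a feeder open to 1 pig at a time and had no experimental treatment. Muscle was taken from the psoas major directly after slaughter, at ages from 131 to 156 days in Duroc and from 147 to 166 days in Landrace. Each pig gave 1 unstranded RNA-seq library of polyadenylated RNA. Replicate numbers were given in the order of the samples and serve only as names.

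The psoas major is a loin muscle built mainly from fast and slow muscle fibres, with fat, vessel, nerve and connective tissue cells between them. The table of gene names used here held no symbol for the identifier, so no function is given here for its product. Other annotation may hold one. The feed conversion ratio (FCR) is the feed eaten per unit of weight gained, so that a low FCR means an efficient pig. The RNA integrity number (RIN) scores how intact the RNA of a sample was, with high values for intact RNA.

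The counts on genes summed to between 22188911 and 25954816 per pig. In each breed the markers of the labelled tissue were present, with 24671 to 83515 CPM (counts divided by the depth of the library) summed over 7 fast fibre genes in Landrace and 35550 to 64941 in Duroc. Levels are given as CPM with TMM scaling, a correction for differences in library composition, unless library size only is stated. The TMM factors ran from 0.650 in Landrace replicate 27 to 1.24, and those of the Landrace pigs rose with RIN (Pearson r = 0.784, p = 2e-05; Spearman rho = 0.604, p = 0.0009; 28 pigs, two-sided permutation tests).

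The gene was present in every library and far higher in Landrace. In 12 of the 13 Duroc pigs it had 67 to 183 counts, while the Landrace pigs had 2560 to 5100 counts. Duroc replicate 12 had 1783 counts, with an exact 95% Poisson interval of 1701 to 1868 that covers counting error only. This pig stood apart from its breed and just below the lowest Landrace pig.

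In the Duroc pigs the level was 9.12 ± 18.2 CPM (SD, n = 13), with a median of 3.94. Duroc replicate 12 was at 69.7 CPM and the remaining 12 Duroc pigs were at 4.08 ± 0.875 CPM (SD, n = 12). The lowest of the 12 was replicate 2 at 2.76 CPM and the highest was replicate 3 at 6.09 CPM. Most of the SD over the 13 pigs thus came from 1 animal.

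In the Landrace pigs the level was 158 ± 49.6 CPM (SD, n = 28), with a median of 147. The lowest was replicate 6 at 87.0 CPM. The 2 highest were replicate 27 at 314 CPM and replicate 22 at 218 CPM. No Landrace pig came near the level of the 12 Duroc pigs.

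**Figure D1:**
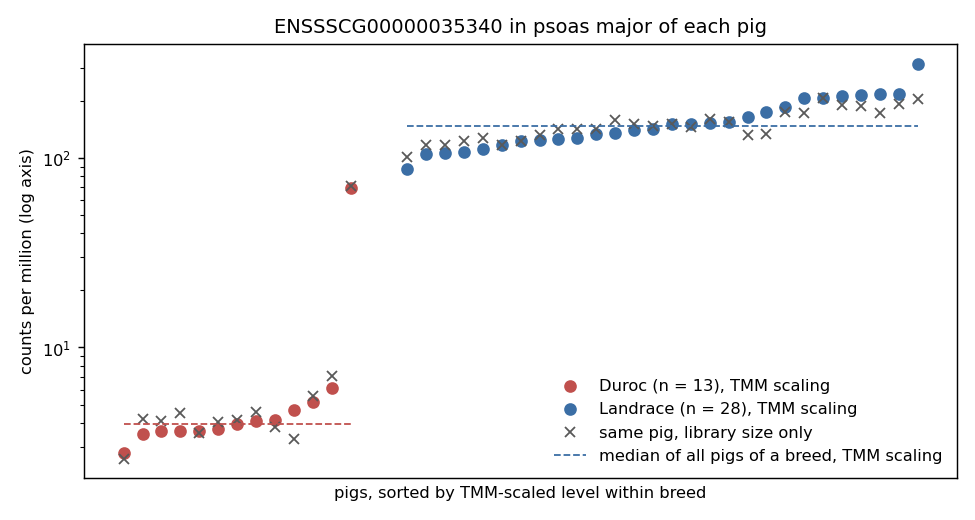
The level of the gene in each pig, in CPM on a log axis, with the pigs of each breed sorted from low to high. Filled points are TMM-scaled values, crosses are the same pigs scaled by library size only, and dashed lines are the medians of all pigs of a breed (3.94 in Duroc, 147 in Landrace). The 12 low Duroc pigs lie between 2.76 and 6.09, Duroc replicate 12 lies alone at 69.7, and the Landrace pigs run without a break of similar size from 87.0 to 314.

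The mean was 17.3-fold higher in Landrace than in all Duroc pigs, and 38.6-fold higher than in the 12 low Duroc pigs. The lowest Landrace pig was 14.3-fold above the highest of these 12 and 1.25-fold above Duroc replicate 12. The breed coefficient of the joint model was 4.91 on the log2 scale (SE 0.45), the largest absolute value of the 11146 genes tested. Genes with low counts were filtered out beforehand without regard to breed. A gene nearly absent from a whole breed can therefore be missing from this ranking. In that model, which held FCR, RIN, age and batch besides breed, 15.6% of all genes were called higher in Landrace, at a false discovery rate (FDR) of 0.1 by edgeR's quasi-likelihood test. Since the muscle was measured in bulk, a lower level cannot be told apart from fewer cells that express the gene.

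The next largest absolute breed coefficients, again as a description, were -4.10 for THBS2, 3.71 for ENSSSCG00000033727, -3.21 for PLEKHB1, -2.81 for ACHE and -2.75 for PDZD9. They are adjusted for the other terms of the model, and the CPM ranges of the breeds overlapped for each. PLEKHB1 (SE 0.72) and ACHE (SE 0.71) had few counts, with a lowest count of 4. Their mean levels were 4.83 and 3.93 CPM in Duroc against 1.23 and 1.80 CPM in Landrace. THBS2 encodes thrombospondin 2, a secreted matrix protein, and ACHE encodes acetylcholinesterase, the enzyme that ends signalling at the neuromuscular junction. Of the 11146 genes left by that filter, 8 (0.0718%) were higher in every Landrace pig than in every Duroc pig, and ENSSSCG00000035340 is among them by the values given above. A further 2 genes were lower in every Landrace pig.

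On the log2 scale the 12 low Duroc pigs and the Landrace pigs lay at 2 levels, which the choice of the gene by its breed difference already fixes, with 1 pig between them. The widest gap between neighbouring pigs was 3.41 log2 units, between Duroc replicates 3 and 12, and it took up 51.8% of the whole range. The median gap was 0.049.

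The 13 Duroc pigs were not graded as a whole, since the same gap of 3.41 took up 77.1% of their range. The Landrace pigs, and the Duroc pigs without replicate 12, showed a graded level. In Landrace the widest gap was 0.53, between replicates 22 and 27, and in the 12 low Duroc pigs it was 0.29, between replicates 2 and 1. Among 1 to 3 normal components of equal variance, a single component had the best Bayesian information criterion in both (the higher value is the better), at -36.7 against -41.4 for 2 components in Landrace and at -5.88 against -9.36 in the 12 Duroc pigs. These 12 had been picked by their level, which favours a single component beforehand. Over all 13 Duroc pigs 3 components were best, at -22.4 against -49.2 for 2 and -44.1 for 1. Over the 41 pigs 2 were best, at -107 against -193 for 1, which the choice of the gene by breed favours. Duroc replicate 12 was at 44.2% of the Landrace mean and at 17.1 times the mean of the other Duroc pigs, which with a single animal describes that animal only.

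The label values of Duroc replicate 12 did not set it apart from its breed. Its RIN was 8.3, its FCR 1.89 and its age 148 days, each inside the range of the other Duroc pigs. Its library had 24940824 counts and a TMM factor of 1.03. The other 2 Duroc pigs of its slaughter batch had 3.94 and 4.10 CPM of the gene, and the 2 Landrace pigs of that batch had 151 and 213 CPM.

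To see whether the library as a whole sat between the breeds, each pig was placed on the genes that separated the breeds among the other 40 pigs, leaving out ENSSSCG00000035340 itself. For Duroc replicate 12 there were 10 such genes, and it was nearer to Landrace on 1 of them. Its median position was -0.051 on a scale where 0 is the Duroc mean and 1 the Landrace mean. The other Duroc pigs were nearer to Landrace on 0 to 6 of 9 to 14 genes. The upper end was replicate 10 alone, at 6 of 14, and the remaining Duroc pigs were nearer to Landrace on 0 or 1 gene, as was Duroc replicate 12.

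The spread inside each breed was compared with genes of similar level, within 0.5 log2 units of its mean. In Landrace its SD was 0.42 on the log2 scale, and 306 of 358 such genes (85.5%) had a lower SD, with a median of 0.27. In the 12 low Duroc pigs its SD was 0.26, and 698 of 1975 such genes (35.3%) had a lower SD, with a median of 0.31. The gene was thus more variable than most genes of its level in Landrace. The 12 Duroc pigs had been picked by their level of this gene, which lowers its SD beforehand, and the compared genes were not trimmed likewise. Their rank therefore cannot decide whether the gene varied little in Duroc. With Duroc replicate 12 included its SD was 1.13, a value set mostly by that pig. In that comparison 2034 of 2043 such genes (99.6%) had a lower SD, with a median of 0.29. Counting error alone gives a coefficient of variation of 9.62% at the counts of the 12 Duroc pigs and 1.63% at those of the Landrace pigs.

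The scaling set part of the Landrace spread. The highest Landrace level was 3.61-fold above the lowest with TMM scaling and 2.04-fold above it with library size only. When scaled by library size only, replicate 27 fell from 314 to 204 CPM and replicate 18, at 206 CPM, was the highest. The breeds stayed apart on this scale, with Duroc replicate 12 at 71.5 CPM and the lowest Landrace pig at 101 CPM.

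The Landrace levels also differed between slaughter batches, the 5 groups of pigs slaughtered together. The median was 131 CPM in batch 2 (12 Landrace pigs, 87.0 to 174 CPM) and 127 CPM in batch 3 (7 pigs, 105 to 207 CPM). In batch 5 the median was 215 CPM (7 pigs, 143 to 314 CPM). These medians were 137, 143 and 176 CPM with library size only. The same batches had median RIN values of 8.1, 8 and 7.4 and median TMM factors of 1.07, 1.01 and 0.875, so low RIN, small TMM factors and high levels of the gene came together in batch 5, and the part of each was not tested.

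The relation to RIN was then examined, as it was not used to choose the gene. In the within-breed model of the 28 Landrace pigs, with FCR, age and batch as covariates, the gene fell by 0.36 on the log2 scale per RIN unit (SE 0.12, 95% interval -0.61 to -0.11, FDR 0.0218, edgeR quasi-likelihood test with Benjamini-Hochberg adjustment). This was no exception, since 42.9% of the 11020 genes in that model were called for RIN. Scaled by library size only, the coefficient was -0.08 (FDR 0.579), without Landrace replicate 27 it was -0.28 (FDR 0.117), and without the pigs with a RIN under 7 it was -0.34 (FDR 0.349). In these alternatives the negative sign remained, but the call did not. The call held with DESeq2's size factors, no filter on low counts, DESeq2 and limma (FDR 0.015 to 0.047). It also held with age left out, batch as a number and the sum of the strand columns (FDR 0.019 to 0.032, edgeR).

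Pig by pig, the level in Landrace fell with RIN (Pearson r = -0.631, p = 0.00041, adjusted p = 0.00164; Spearman rho = -0.624; two-sided permutation tests, 28 pigs). The adjustment covered 8 relations, RIN, FCR, age and total count in each breed. Without the 2 pigs farthest from the median RIN, r was -0.560 (adjusted p = 0.0106, permutation test). On library size alone, r was -0.355 (p = 0.0648, adjusted p = 0.259, permutation test), which did not pass.

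Within the batches that held at least 6 Landrace pigs, r with RIN was -0.619 in batch 2, -0.059 in batch 3 and -0.678 in batch 5. The values were -0.152, 0.050 and -0.270 with library size only. The relation thus did not appear in batch 3 on either scale, and batches 1 and 4 held too few Landrace pigs.

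The strongest of the 8 relations was with the total count. In Landrace the level of the gene was lower in libraries with more counts (r = -0.751, p = 1e-05, adjusted p = 8e-05; rho = -0.764; permutation tests, 28 pigs, with the smallest p that 100000 permutations can give). It was -0.557 (p = 0.001, adjusted p = 0.008, permutation test) with library size only, and without the 2 pigs farthest from the median total it was -0.686 with TMM scaling. The total is also the denominator of CPM, so the 2 values share it, and its part in the relation was not tested. Within batches 2, 3 and 5, r was -0.595, -0.718 and -0.857, and with library size only it was -0.189, -0.713 and -0.589.

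**Figure D2:**
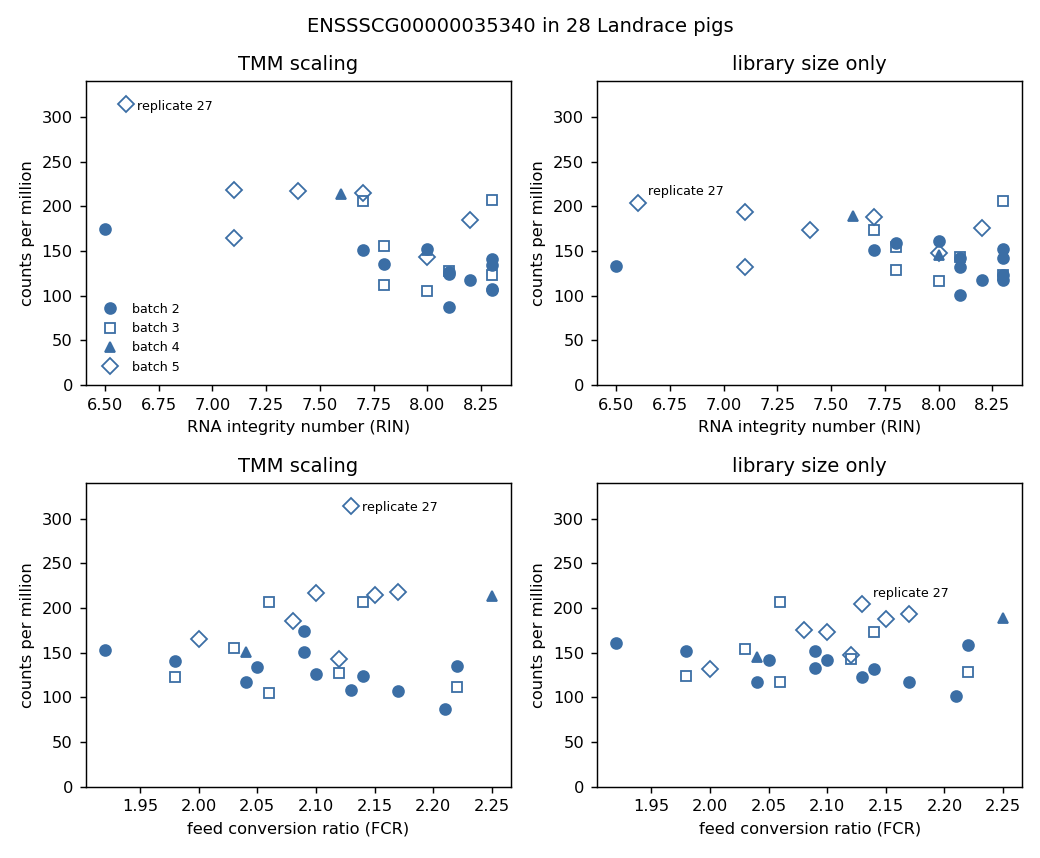
The level of the gene in the 28 Landrace pigs, in CPM on linear axes, against RIN (upper panels) and FCR (lower panels), with TMM scaling on the left and library size only on the right. Each symbol is a pig and its shape is the slaughter batch. The slope on RIN (r = -0.631) is flatter with library size only (r = -0.355), where replicate 27 falls from 314 to 204, and no slope on FCR is seen (r = 0.017 and 0.071).

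No relation with RIN was seen in Duroc. Because Duroc replicate 12 lay far from the other Duroc pigs, the relations were computed over the 12 low pigs, where r with RIN was -0.215 (p = 0.481, permutation test) with TMM scaling and 0.249 with library size only. In the Duroc model of all 13 pigs the RIN coefficient was -1.24 (SE 1.35, 95% interval -4.30 to 1.82, FDR 0.644, edgeR), with 0% of 10509 genes called, 1824 genes at an unadjusted p under 0.05, 410 genes called by DESeq2 and 0 by limma. Without Duroc replicate 12 it was -0.43, and with batch as a number it turned to 1.70, neither of which passed.

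Over all 41 pigs the RIN coefficient was -0.40 (SE 0.28, 95% interval -0.98 to 0.17, FDR 0.252, edgeR), in a model that called 51.8% of all genes. Without Duroc replicate 12 it was -0.32 and passed (FDR 0.0355, edgeR), so leaving out this 1 library changed the call. It was -0.09 (FDR 0.805, edgeR) with library size only, -0.05 (FDR 0.915, edgeR) with batch as a number and -0.25 (FDR 0.690, edgeR) without the pigs with a RIN under 7. The RIN by breed term, Landrace minus Duroc in a fit of all 41 pigs that gave both breeds the same FCR, age and batch coefficients, was -0.89 (SE 0.76, 95% interval -2.43 to 0.65, FDR 0.971, edgeR). Its sign is opposite to that of the models fitted to each breed alone, where the coefficient was -0.36 in Landrace and the lower -1.24 in Duroc, so no direction of a difference between the breeds is given. That term called 0% of the genes with edgeR (541 at an unadjusted p under 0.05), 0 with DESeq2 and 1 with limma. The RIN by breed term was -0.45 without Duroc replicate 12, -1.78 with batch as a number and -0.52 with limma, and did not pass in any of these.

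Feed efficiency was the trait the study was built on, and the level of the gene showed no relation to it that passed the test. In the joint model the FCR coefficient was -0.22 on the log2 scale per 0.1 FCR (SE 0.16, 95% interval -0.54 to 0.09, FDR 0.676, edgeR quasi-likelihood test). Of the genes tested, 0% were called for FCR by edgeR, with 968 at an unadjusted p under 0.05, while DESeq2 called 5 and limma 0. Without Duroc replicate 12 the coefficient changed sign to 0.03 (FDR 0.907, edgeR), and with limma it was -0.12 (FDR 0.769).

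In Landrace the FCR coefficient was -0.03 (SE 0.07, 95% interval -0.18 to 0.12, FDR 1.00, edgeR), so a change of more than 0.18 log2 units per 0.1 FCR lay outside the interval. In Duroc it was -0.17 (SE 0.39, 95% interval -1.06 to 0.72, FDR 0.931, edgeR), an interval that holds large changes of either sign. Both models called 0% of their genes with edgeR, with 606 genes in Landrace and 564 in Duroc at an unadjusted p under 0.05. DESeq2 called 2 and 10 genes and limma called 0 in each. The FCR by breed term, Landrace minus Duroc in a fit of all 41 pigs with shared RIN, age and batch coefficients, was 0.23 (SE 0.33, 95% interval -0.43 to 0.89, FDR 0.946, edgeR), a term for which edgeR called 0% of the genes (582 at an unadjusted p under 0.05), DESeq2 called 1 and limma 0.

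The Duroc FCR values depended on 1 pig and on the model. Without Duroc replicate 12 the Duroc coefficient turned to 0.02 and the FCR by breed term to -0.17. With batch as a number they were -0.77 (FDR 0.550, edgeR) and 0.71 (unadjusted p = 0.0402, FDR 0.523, edgeR). The Duroc coefficient was -0.0013 without age in the model and -0.26 with limma, and the FCR by breed term was 0.14 with limma. In Landrace the coefficient was -0.06 without age and turned to 0.01 with library size only, and none of these values passed.

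The pig-by-pig relation to FCR was r = 0.017 in Landrace (p = 0.930, rho = -0.0022, permutation tests) and r = 0.176 in the 12 low Duroc pigs (p = 0.582, permutation test). The Duroc value was 0.475 with library size only (p = 0.119, adjusted p = 0.316; rho = 0.559, p = 0.0622; permutation tests) and 0.539 with TMM scaling without the 2 pigs farthest from the median FCR (adjusted p = 0.245, permutation test). In the Landrace batches 2, 3 and 5 it was -0.550, -0.054 and 0.436, and with library size only -0.481, 0.026 and 0.782, so the sign differed between batches. Age had r = 0.156 in Landrace (adjusted p = 0.770) and 0.112 in the 12 Duroc pigs (adjusted p = 0.832), and the total count had r = -0.235 in the 12 Duroc pigs (adjusted p = 0.770), all by permutation tests. The relations to FCR, to age and, in Duroc, to RIN and total count did not pass.

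The genes whose levels were most like it over the 41 pigs were named by Pearson's r on the log2 scale, as a description that the breed difference dominates. They were TTC4 (r = 0.904; chromosome 6, 157616499 to 157651676), ENSSSCG00000033727 (0.900), ACSM5 (0.878; chromosome 3, 25393121 to 25422551), IDI1 (0.877) and TBC1D7 (0.876; chromosome 7, 9685273 to 9708781), with positions from RefSeq on Sscrofa11.1. TTC4 encodes a cochaperone, ACSM5 a mitochondrial acyl-CoA synthetase, IDI1 an enzyme of isoprenoid and cholesterol synthesis, and TBC1D7 a subunit of the TSC complex that restrains mTORC1. In all, 14 genes had an r above 0.8.

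Duroc replicate 12 divided these 5 genes. TTC4 was at 10.9 to 17.5 CPM in the other Duroc pigs, 19.5 to 29.0 CPM in Landrace and 23.5 CPM in Duroc replicate 12, which is 98.2% of the Landrace mean. ENSSSCG00000033727, which has no symbol either, was at 28.5 CPM in Duroc replicate 12, or 51.6% of the Landrace mean, with 24.6 to 129 CPM in Landrace. Its pattern in Duroc was not the same, as Duroc replicates 2 and 4 were also high at 25.1 and 20.4 CPM while the lowest Duroc pig was at 2.12 CPM. In the same pigs 2 and 4, ENSSSCG00000035340 was at 2.76 and 5.15 CPM.

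The other 3 genes were at a Duroc level in Duroc replicate 12. ACSM5 was at 9.88 CPM in it, with 8.96 to 15.4 CPM in the other Duroc pigs and 19.9 to 47.3 CPM in Landrace. IDI1 was at 15.8 CPM, with 12.3 to 18.3 CPM in the other Duroc pigs and 22.1 to 62.3 CPM in Landrace. TBC1D7 was at 9.69 CPM, with 7.57 to 13.3 CPM in the other Duroc pigs and 13.4 to 27.1 CPM in Landrace.

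**Figure D3:**
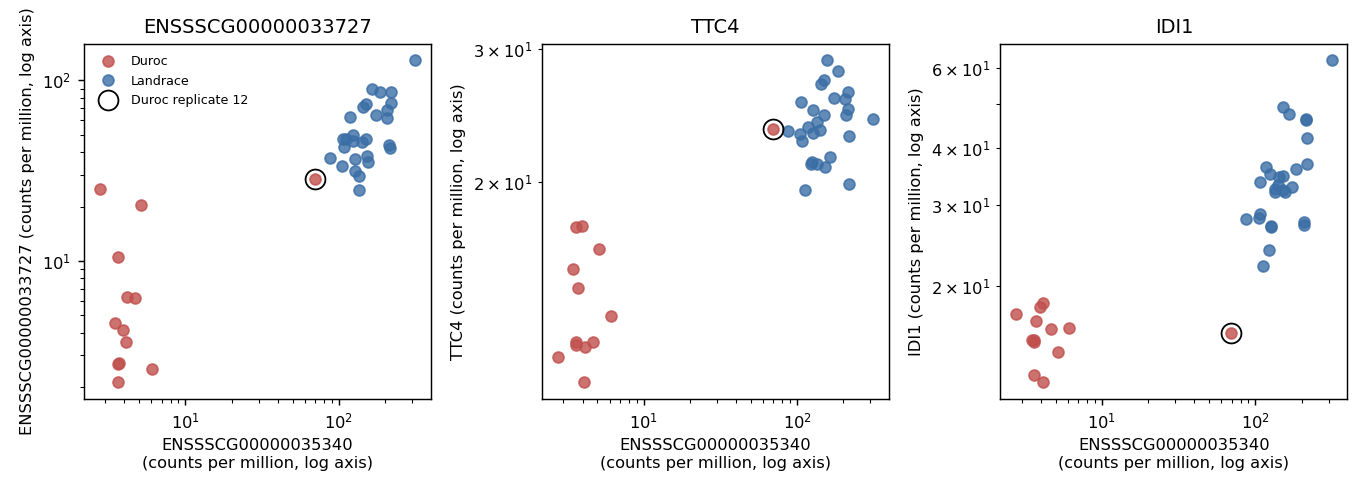
Levels of ENSSSCG00000033727, TTC4 and IDI1 against the level of ENSSSCG00000035340 in the 41 pigs, in CPM on log axes. Each point is a pig, coloured by breed, and the ring marks Duroc replicate 12, which has a Landrace level of TTC4 (23.5), a Duroc level of IDI1 (15.8) and 28.5 of ENSSSCG00000033727, where 2 further Duroc pigs reach 25.1 and 20.4.

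Within Landrace alone, r with ENSSSCG00000035340 was 0.632 for IDI1, 0.615 for ENSSSCG00000033727, 0.359 for TBC1D7, 0.262 for ACSM5 and 0.229 for TTC4, over 28 pigs whose values share a library and a scaling factor. In the 12 low Duroc pigs r ran from -0.193 for ENSSSCG00000033727 to 0.403 for ACSM5. In the fit of every other gene on the level of ENSSSCG00000035340 within Landrace, with RIN, age and batch as covariates, none of the 5 was called, with FDR values from 0.486 for IDI1 to 0.994 for ACSM5 (edgeR). In Duroc none was called, with the smallest p for ENSSSCG00000033727 (coefficient 0.76 per SD, SE 0.14, FDR 0.366, edgeR).

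That fit called 115 of 11019 genes in Landrace, which is 1.04%, at an FDR of 0.1 (edgeR quasi-likelihood test, Benjamini-Hochberg over all genes). Of these, 83 rose and 32 fell with the level of ENSSSCG00000035340. Both levels of a pig come from the same library and the same scaling factor, so they are not independent measurements. On library size alone 1 gene was called, LUC7L3 (FDR 0.0347, edgeR), and without Landrace replicate 27 there were 43, of which 41 were among the 115.

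The 5 genes with the smallest p among those that rose with it in Landrace held 2 genes tied to RNA splicing and 1 of muscle calcium handling. LUC7L3, a splicing factor of chromosome 12 (27004894 to 27032156), rose by 0.35 on the log2 scale per SD of the gene (SE 0.046, FDR 0.000635, edgeR), with 31.3, 46.4 and 147 CPM as its lowest, median and highest Landrace level. TRDN, which encodes triadin of the calcium release complex of muscle (chromosome 1, 39180544 to 39567245), rose by 0.38 (SE 0.060, FDR 0.00537, edgeR), with levels of 710, 1019 and 2817 CPM. The next 3 were DYNLL1, a dynein light chain, at 0.45 (FDR 0.00537, edgeR), C1QL3, a secreted protein of the C1q family, at 0.53 (FDR 0.00655) and PPIG, a cyclophilin found with splicing factors, at 0.33 (FDR 0.00851). With library size only, all 5 lay closer to 0, with LUC7L3 at 0.21, TRDN at 0.20 (FDR 0.259, edgeR), DYNLL1 at 0.23 (FDR 0.298), C1QL3 at 0.30 (FDR 0.298) and PPIG at 0.19 (FDR 0.259), and of these only LUC7L3 passed. The SD that forms the unit was also smaller there, so the sizes are not directly comparable. The gene's coefficient of variation in Landrace was 18.7% with library size only and 31.5% with TMM scaling.

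The 5 with the smallest p among those that fell were a matrix gene, 2 secretory genes and 2 regulators of gene expression. FBLN2, which encodes the matrix protein fibulin 2 (chromosome 13, 70757255 to 70830430), fell by 0.68 per SD (SE 0.14, FDR 0.0325, edgeR), with 4.37, 15.0 and 58.1 CPM as its lowest, median and highest Landrace level. KLF4, a zinc finger transcription factor (chromosome 1, 248604817 to 248609574), fell by 0.52 (SE 0.11, FDR 0.0323, edgeR), with levels of 2.15, 7.35 and 16.1 CPM. SURF4, a cargo receptor of the early secretory pathway, had a coefficient of -0.40 (FDR 0.0259, edgeR), ADISSP, a secreted adipose signalling protein, one of -0.34 (FDR 0.00655) and PTBP1, a repressor of splicing, one of -0.26 (FDR 0.0338). With library size only none of the 5 passed, with FDR values from 0.298 for FBLN2 to 0.486 for KLF4 (edgeR), whose coefficient was -0.32. Without the 2 Landrace pigs farthest from the median, SURF4 (-0.26, FDR 0.172), KLF4 (-0.44, FDR 0.128) and FBLN2 (-0.61, FDR 0.116) did not pass either (edgeR). Without covariates the coefficient was -0.13 for ADISSP and -0.50 for PTBP1.

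**Figure D4:**
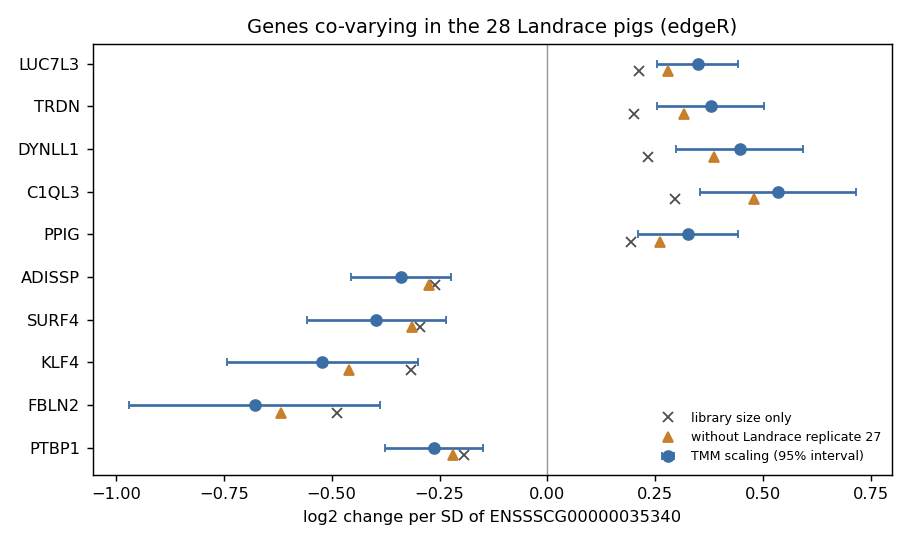
Coefficients of the 10 named genes in the 28 Landrace pigs, as log2 change per SD of ENSSSCG00000035340, from edgeR with RIN, age and batch as covariates. Points with 95% intervals are the TMM-scaled fit, crosses are library size only and triangles leave out Landrace replicate 27. All 10 keep their sign in both alternatives and lie closer to 0 there, with LUC7L3 at 0.35, 0.21 and 0.28 and FBLN2 at -0.68, -0.49 and -0.62. Each fit has the SD of its own pigs and scaling as the unit. That SD is smaller in both alternatives, so the sizes are not directly comparable.

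The co-varying genes overlapped with those related to RIN. Of the 115, 85 (against 42.9% of all genes in the Landrace model) were also called for RIN in Landrace, and in 84 of the 85 the RIN coefficient had the opposite sign to the co-variation, as the gene's own RIN coefficient was negative. No such share over all genes called for RIN was computed, so the 84 are not read as a result about the co-varying genes. LUC7L3 changed by -0.66 per RIN unit (FDR 7.75e-05, edgeR), while DYNLL1 (-0.32, FDR 0.109) and FBLN2 (0.55, FDR 0.142) did not pass for RIN. RIN was a covariate of the co-variation fit, and without covariates 5331 genes were called. The part of RNA integrity in the co-variation was not tested beyond this.

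In Duroc no gene was called. The fit over 13 pigs gave 0% of 10508 genes with edgeR, with 884 at an unadjusted p under 0.05, while limma called 0 and DESeq2 called 165, of which 14 rose and 151 fell. Of the 115 Landrace genes, 113 were tested in Duroc and 56 had the same sign there. The SD of the gene in this breed was 1.13 on the log2 scale with Duroc replicate 12 and 0.26 without it, so the fit rests on that pig.

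The 6 genes with the smallest p in Duroc all had an FDR of 0.366 (edgeR). Those with positive coefficients were PPP1R3B, a glycogen-targeting subunit of protein phosphatase 1, at 0.56 per SD, ATF5, a stress-response transcription factor, at 0.46 and PKDCC, a secreted kinase, at 0.42. Those with negative coefficients were AGT, the angiotensin precursor, at -0.96, ARID5B, a DNA-binding regulator, at -0.52 and GNG11, a G protein subunit, at -0.38. Without Duroc replicate 12, and per SD of the remaining pigs, PPP1R3B was at 0.11, ATF5 at 0.03 and PKDCC at 0.14. In that fit AGT was at -0.40, ARID5B at -0.25 and GNG11 at -0.05. With no covariates and all 13 pigs PPP1R3B turned to -0.14. GNG11 was at 6.33 CPM and AGT at 2.81 CPM in Duroc replicate 12, below the 12.9 and 4.98 CPM of the lowest other Duroc pig. PPP1R3B, at 42.0 CPM in this pig and 13.5 to 122 CPM in the others, showed no such place before the covariates were fitted.

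Markers of fibre types and of other cell types gave no call in the Landrace co-variation. Among 11 lists, 0 members were called in either direction by edgeR, of 7 slow fibre, 7 fast fibre, 7 adipocyte, 8 leukocyte, 2 erythroid, 5 endothelial, 6 fibroblast, 2 nerve and Schwann cell, 4 smooth muscle, 8 interferon response and 7 immediate early genes tested. With 1.04% of all genes called, so few members would give about as few calls at the background share, and the count says nothing particular of the lists. The median coefficient over all genes was -0.00053, and the medians of the lists ran from -0.39 for fibroblast to 0.11 for fast fibre genes. The fibroblast genes COL1A1 (-0.39, FDR 0.794, edgeR) and COL3A1 (-0.43, FDR 0.233), which encode the chains of type I and type III collagen, had the lowest coefficients of the members with the highest levels.

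The fibre type and fat genes with the highest levels did not pass. The troponin genes TNNT3 (0.11, FDR 0.651, edgeR) and TNNC2 (0.15, FDR 0.487) of fast fibres and TNNT1 (-0.08, FDR 0.907) and the myosin light chain gene MYL2 (-0.11, FDR 0.860) of slow fibres had coefficients of both signs. The median of the slow fibre list was -0.12. Among fat genes, PLIN4 of lipid droplets was at 0.16 (FDR 0.621, edgeR) and the lipoprotein lipase gene LPL at -0.30 (FDR 0.420), with a list median of -0.30.

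The remaining lists had medians of -0.16 for leukocyte, -0.12 for endothelial, -0.20 for smooth muscle, -0.11 for interferon response, 0.0068 for erythroid, 0.067 for nerve and Schwann cell and 0.095 for immediate early genes. Their members with the highest levels had coefficients from -0.21 for CSF1R, a macrophage growth factor receptor (FDR 0.707, edgeR), to 0.21 for NR4A1, an immediate early receptor gene (FDR 0.806). Between these lay LCP1, PECAM1, CDH5, CNN1, DES, OAS2, HBB, ALAS2, PMP22, MBP and JUN, none with an FDR under 0.570.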

How the data were processed

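Reads were trimmed by the authors (Trimmomatic 0.39) and aligned to Sscrofa11.1 with STAR 2.7.1a, which also counted pairs per Ensembl gene, and they deposited these raw counts for 41 pigs without normalization. The column for unstranded counting was used, so pairs on overlapping or antisense genes cannot be told apart, and pairs that align to several places are not counted. Breed, RIN, FCR, age and batch came from the labels. The members and lists were chosen with earlier results of these data known.

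Genes passing filterByExpr (minimum count 10) were tested with edgeR 4.0.16 in R 4.3.3 (quasi-likelihood test, TMM scaling, Benjamini-Hochberg, threshold 0.1). The filter took all pigs of a model as a single group. Breed, FCR, RIN, age and batch (a factor) entered the joint model, and the models within a breed left breed out. Co-variation was the coefficient of the gene's log2(CPM + 0.5), scaled to an SD of 1 within the pigs and scaling of each fit, with RIN, age and batch as covariates. DESeq2 1.42.0 and limma 3.58.1 with voom were alternatives. Mixture components were fitted with mclust 6.1.1. Correlations on the log2(CPM + 0.5) scale used 100000 permutations with SciPy 1.17.1, two-sided. The models were checked on simulated counts. The pigs are separate animals, and p-values measure the spread between them.

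Named were the 5 genes with the highest r over all pigs, the 5 next largest breed coefficients, the 5 smallest p in each direction in Landrace co-variation, the 3 in each direction in Duroc, and the 2 members of each marker list with the highest mean CPM, of which 1 is not reported here. Of the 25880 identifiers, 14857 matched a symbol, and 9829 of the 11146 tested. The position of ENSSSCG00000035340 and its neighbouring genes were not analysed here.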

Additional observations from a re-analysis of the deposited data

Results flagged for a closer look

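In the 4 Duroc pigs of batch 5, replicate 10 stood away from the others, at 4.69 CPM against 3.62, 3.63 and 3.71 CPM. Its gap to the nearest pig was 0.913 of the range of the 4, past Dixon's critical value for 4 values. With library size only the most distant of the 4 pigs had a ratio of 0.338, and replicate 10 was then the lowest, at 3.28 CPM. This pig had the smallest TMM factor of its breed (0.700) and a RIN of 7. Its level lay inside the range of the 12 low Duroc pigs on both scales. In all, 6 combinations of breed, batch and scaling were examined, and chance alone passes such a value in about 5% of groups.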

How the results depend on the processing

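The breed coefficient kept its direction in all alternatives run, from 4.73 with library size only to 5.26 without Duroc replicate 12. This replicate and Landrace replicate 27 were left out as alternatives chosen after seeing the data. Without 1 of them in turn, the breed coefficient was 4.91 to 5.26, the joint FCR coefficient -0.2215 to 0.03466, the joint RIN coefficient -0.32 to -0.28, the FCR by breed term -0.17 to 0.23 and the RIN by breed term -0.75 to -0.45. Within a breed, where only its own pig was left out, the Landrace FCR coefficient was -0.03, the Landrace RIN coefficient -0.28, the Duroc FCR coefficient 0.0222 and the Duroc RIN coefficient -0.43.

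With library size only the Landrace RIN coefficient was -0.0767, the Landrace FCR coefficient 0.0134, and r was -0.355 for RIN in Landrace, 0.249 for RIN and 0.283 for total count in Duroc. Batch as a number gave a Duroc RIN coefficient of 1.70, and without the pigs with a RIN under 7 the Landrace one was -0.34 (no Duroc pig had such a RIN). The r with FCR in Landrace was -0.078 without the 2 pigs farthest from the median. The causes were not tested.

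The number of genes co-varying in Landrace was 27 at a threshold of 0.05, 1 with library size only, 38 with no filter on low counts, 316 with DESeq2, 5331 with no covariates, 324 on the CPM scale, 13 without the 2 pigs farthest from the median of the gene, 52 without the pigs with a RIN under 7 and 43 without Landrace replicate 27. It was 94 to 127 with DESeq2's size factors, limma, FCR added and a pseudocount of 5. DESeq2 called all of the 115 genes and limma 113 of them. In Duroc it was 165 with DESeq2, 1 without the 2 farthest pigs and 0 otherwise.

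No paired analysis was possible because the labels give the breeds no shared replicate numbers. The planned count of neighbouring genes was not run, as the position of the gene was not analysed here. Counts of 67 to 183 in the low Duroc pigs limit what can be said of differences among them.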

Other observations

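The columns that count the 2 strands apart were also read for the gene, after the other values had been seen. The libraries were unstranded, so both columns receive pairs from a gene, and a share away from 50% describes where reads fell and not which strand was transcribed. In the 28 Landrace pigs 51.9% of the pairs were in the first strand column (54851 of 105660, 95% Wilson interval 51.6% to 52.2%, counting error only). In the 12 low Duroc pigs the share was 57.2% (788 of 1377, interval 54.6% to 59.8%). In Duroc replicate 12 it was 51.3% (916 of 1786, interval 49.0% to 53.6%), close to the Landrace share.

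Over pigs, the mean share differed by -5.68 percentage points, Landrace minus the 12 low Duroc pigs (p = 2e-05, two-sided permutation test), but these 12 had been set apart by their level of the gene and the difference was noticed first, so the p is no support. The pooled shares of the 12 low Duroc pigs and the Landrace pigs differed by 5.31 percentage points. A difference at least as large was found in 5 of 9027 other genes with 1000 or more pairs in each group, and in 4 of the 3034 that had 1000 to 3000 pairs in the 12 Duroc pigs. The strand columns held 81 pairs more than the unstranded column in the 12 Duroc pigs and 167 more in Landrace, pairs that unstranded counting does not give to this gene. If all of them were taken from 1 column, the Duroc share would lie between 54.6% and 60.8% and the Landrace share between 51.8% and 52.0%. What gives these pairs was not tested, and the pair counts of the low Duroc pigs are small.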
